A study of Homo sapiens with 18 samples.

Results

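The genes described here are 8 members of the cellular zinc response: the metallothioneins MT1E, MT1F, MT1G, MT1M, MT1X and MT2A, the zinc exporter SLC30A1 and the transcription factor MTF1. They were chosen by name, and the estimated counts of all transcripts listed under each name were summed, which gave 8 of the 32490 genes in the table from 24 of its 145326 transcripts. Spheroidal aggregates of U87 mg, an established glioblastoma line, and DAOY, an established medulloblastoma line, were embedded in Matrigel and held in electrotaxis channels. Each line was sampled without exposure (0 h) and after 2 h or 8 h in a continuous direct current electric field (dcEF) of 250 V/m, with 3 samples for each of the 6 conditions and 3 channels pooled per sample. The aggregates of both lines and all times shared the same medium with serum, the same Matrigel embedding and a day of rest before the field. Aggregates kept in the channel for 2 h or 8 h without a field were not analysed here, so field and time in the channel cannot be told apart.

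Metallothioneins are small cysteine-rich proteins that bind zinc and copper in the cytosol, and their human genes lie in a cluster on chromosome 16. When free zinc rises, it binds MTF1, which then attaches to metal response elements in the promoters of metallothionein genes and of SLC30A1, whose product moves zinc out of the cytosol. Metallothionein transcripts also respond to cadmium, glucocorticoids and oxidative stress, and astrocytes and gliomas are known to carry them.

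In the annotation of GRCh38, all 6 metallothionein members lay on chromosome 16, MT2A at 56608199 to 56609497, MT1E at 56625475 to 56627112, MT1M at 56632233 to 56633986, MT1F at 56657694 to 56660698 and MT1X at 56682424 to 56684196 on the plus strand, and MT1G at 56666731 to 56668065 on the minus strand. SLC30A1 lay on chromosome 1 at 211571568 to 211578742 and MTF1 on chromosome 1 at 37809567 to 37859620, both on the minus strand. The core of the metal response element was searched for as the letters TGCACNC or TGCGCNC, on both strands, in the 250 bases before each RefSeq start (build GRCh38.p14). Promoters of 4 of the 8 members were found in the RefSeq table: MT2A had 7 matches, MT1X 4, SLC30A1 1 and MTF1 0. The RefSeq start of SLC30A1 lay upstream of the annotated start at 211578742, so the bases next to that start were not searched. Of 35116 promoters of the same length, 24.8% held at least 1 match, 0.370% at least 4 and 0.0313% at least 7. The stretches below are shown because they carry these matches, which stand in capitals. A match in capitals that begins with G is the element read on the opposite strand, and a match is a description of letters, not a site of binding. For MT1X and SLC30A1 the stretch was taken up to the first base of an annotated exon, which left 204 bases of MT1X and all 250 of SLC30A1. The window of MT2A lay inside an exon that GENCODE 29 gives to a longer transcript, so only 4 sites of 21 bases are shown for it, 1 for each different match with 7 bases on both sides inside the window.
MT2A chr16:56608424-56608444, plus strand: agccgggTGCGCCCggcccag
MT2A chr16:56608438-56608458, plus strand: ggcccagTGCGCGCggccggg
MT2A chr16:56608489-56608509, plus strand: gcggggcGTGTGCAggcagcg
MT2A chr16:56608523-56608543, plus strand: gggctttTGCACTCgtcccgg
MT1X chr16:56682220-56682423, plus strand: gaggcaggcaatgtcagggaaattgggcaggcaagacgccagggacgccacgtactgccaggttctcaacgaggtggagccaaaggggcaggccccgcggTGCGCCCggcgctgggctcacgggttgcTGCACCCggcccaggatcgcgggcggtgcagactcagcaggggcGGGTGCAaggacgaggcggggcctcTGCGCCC
SLC30A1 chr1:211579162-211579411, minus strand: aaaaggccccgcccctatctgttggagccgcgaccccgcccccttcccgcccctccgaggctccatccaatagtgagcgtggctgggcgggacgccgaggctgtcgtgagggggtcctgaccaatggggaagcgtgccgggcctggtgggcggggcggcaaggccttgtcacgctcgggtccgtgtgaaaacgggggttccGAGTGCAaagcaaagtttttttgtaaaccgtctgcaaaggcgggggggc

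The sum of estimated counts was lowest at 8341976 and highest at 15610886 over the 18 samples. Of 8 glioma and astrocyte markers, AQP4 had 0 counts in U87 mg samples, S100B 0 to 1, SOX2 0 to 2, GFAP 1 to 16, OLIG2 4 to 24 and NES 210 to 463, and VIM and CD44 had at least 44532 and 32478. Of 7 medulloblastoma and granule precursor markers, BARHL1 had 0 counts in DAOY samples, NEUROD1 0 to 3, GLI1 0 to 6, OTX2 16 to 49, GLI2 27.1 to 68.3, ZIC1 75 to 182 and PAX6 135 to 273. In each line, markers at or near 0 thus stood beside markers that were present. ATOH1, a further granule precursor marker, was not among the genes listed. SOX2 (43 to 106 counts) and AQP4 (3 to 13) were higher in DAOY samples, and GLI1 (7 to 31) and GLI2 (92 to 302) in U87 mg samples. NES (6 to 24 in DAOY), VIM (at most 38555 in DAOY), CD44 (at most 24825 in DAOY) and OTX2 (0 in U87 mg) were higher in the line they should mark. The counts of the other markers overlapped between the lines. Of the 18 libraries, DAOY at 0 h replicate 0 stood apart: the fragment length implied by its counts and TPM was 256 bases, against 138 to 163 in the other 17. Without it, every count of called members given below was the same, and 3 estimates changed sign, from −0.075 to 0.21 for MT1E and from −0.035 to 0.17 for SLC30A1 in DAOY at 2 h and from −0.0081 to 0.093 for MT2A in DAOY at 8 h. Levels are given as CPM, counts scaled to the size of each library after TMM normalisation over all samples, when a gene is compared between samples, and as the authors' TPM, which is per length, when genes are compared with each other.

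MT2A was the most abundant member in every condition. Per length, its mean level at 0 h in U87 mg was 2506 TPM, 7.09 times that of MT1E at 353 TPM, followed by MT1X at 221, MT1F at 60.8, SLC30A1 at 35.6, MTF1 at 9.41, MT1G at 6.87 and MT1M at 4.10 TPM. The replicates of neighbours in this order did not overlap down to MTF1, whereas MTF1 overlapped with MT1G and MT1G with MT1M. In DAOY at 0 h the mean level of MT2A was 477 TPM, that of MT1E 147, MT1X 82.1, SLC30A1 35.3, MT1F 13.5, MTF1 10.2, MT1G 7.24 and MT1M 0.710 TPM. Here MT1E and MT1X overlapped, as did MT1X and SLC30A1, MT1F and MTF1, and MTF1 and MT1G. By CPM, MT2A made up 79.3% to 88.5% of the summed level of the 6 metallothioneins in U87 mg samples and 72.7% to 84.6% in DAOY samples.

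The deposited TPM of short metallothionein transcripts moved with the fragment length of a library, and the counts did not move with it in the same way. The 332-base transcript of MT1E had an implied effective length of 77.0 bases in DAOY at 0 h replicate 0 and of up to 195 bases elsewhere, a ratio of 2.53. For the 5474-base transcript of SLC30A1 the ratio was 1.02. In DAOY at 0 h, replicate 0 thus had 203 estimated counts and 235 TPM for MT1E, and replicate 1 had 263 counts but 156 TPM. TPM divided by CPM for MT1E was 10.3 in replicate 0 and 5.99 to 7.99 in the other 17 samples, while for SLC30A1 it was 0.252 against 0.265 to 0.320. Comparisons between samples therefore rest on counts below.

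**Figure D1:**
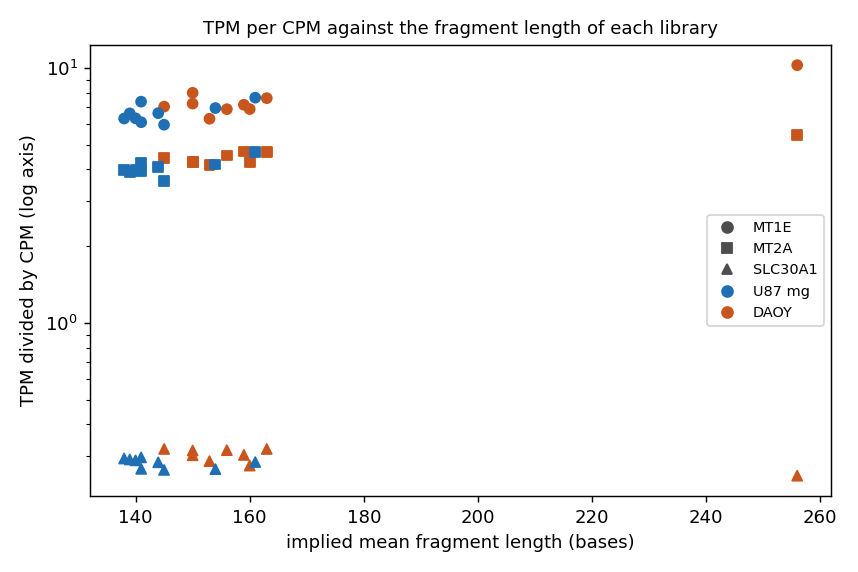
The level of MT1E (circles), MT2A (squares) and SLC30A1 (triangles) in TPM divided by that in CPM, on a log axis, against the implied mean fragment length of each of the 18 libraries in bases, with U87 mg in blue and DAOY in orange. The library at 256 bases has the highest ratio for MT1E (10.3) and MT2A (5.46) and the lowest for SLC30A1 (0.252).

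The first comparison asked how the lines differed before the field. Of the 7 members that passed the filter on low counts in each line, the metallothioneins MT2A, MT1E, MT1X and MT1F were lower in DAOY than in U87 mg at 0 h, and MT1G, SLC30A1 and MTF1 were not called. MT1M passed only through its counts in U87 mg, so its call is left out of this count of 4. A gene was called where the quasi-likelihood F test of edgeR gave a Benjamini-Hochberg FDR under 0.05 together with a log2 fold change of 1 or more in size. By this rule 17.3% of the 13138 genes that passed the filter in each line were called lower in DAOY and 14.3% higher, after adjustment over all 16482 genes tested. In CPM, MT2A reached 449, 641 and 778 in the U87 mg replicates 0, 1 and 2 at 0 h, and 113, 123 and 55.3 in those of DAOY. The groups did not overlap, and the mean of U87 mg was 6.41 times that of DAOY. The log2 fold change was −2.68 (SE 0.45), with an adjusted p of 6.5e-05 in edgeR after Benjamini-Hochberg adjustment.

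MT1E reached 54.3, 58.0 and 49.6 CPM in U87 mg at 0 h and 22.9, 20.4 and 6.19 CPM in DAOY. MT1X reached 49.2, 35.5 and 53.6 CPM in U87 mg and 15.4, 17.9 and 6.90 CPM in DAOY. For both genes every U87 mg sample lay above every DAOY sample, and in DAOY replicate 2 was the lowest. In edgeR, the log2 fold change was −1.71 (SE 0.53, adjusted p = 0.0102) for MT1E and −1.78 (SE 0.45, adjusted p = 0.00227) for MT1X. MT1F stood at 11.98, 19.1 and 17.3 CPM in U87 mg and at 2.94, 4.59 and 0.812 CPM in DAOY, where 8 to 59 counts supported it. These groups did not overlap either, and the log2 fold change was −2.51 (SE 0.61, adjusted p = 0.00168) for MT1F in edgeR. MT1M had 16 to 27 counts in U87 mg at 0 h and 3 in each DAOY replicate. After scaling by library size, the 69 counts of U87 mg against the 9 of DAOY gave a ratio of 6.48, with an exact 95% interval from 3.22 to 14.8 that covers counting error only. The 3 samples of each line were pooled for this ratio, which is a description and no test between the lines. Beside MT2A, MT1E, MT1X and MT1F, 28.9% of the genes that passed in each line lay lower in DAOY without overlap. Without DAOY replicate 0 the value of MT2A was −2.80.

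The remaining 3 members were not called between the lines, and the width of their intervals differed. MT1G had 4 to 23 counts in U87 mg at 0 h and 5 to 15 in DAOY, and its log2 fold change was −0.25 with a 95% confidence interval from −1.96 to 1.46, so that a difference of up to this size could not be detected at this depth. SLC30A1 reached 151, 134 and 93.6 CPM in U87 mg and 156, 107 and 102 CPM in DAOY. Its log2 fold change was −0.054, with an interval from −0.53 to 0.42. MTF1 reached 52.0, 41.3 and 44.5 CPM in U87 mg and 45.9, 43.0 and 50.6 CPM in DAOY, with a log2 fold change of 0.018 and an interval from −0.24 to 0.28. For SLC30A1 and MTF1 the replicates of both lines overlapped. In bulk RNA, fewer expressing cells and less RNA per cell cannot be told apart for any of these differences.

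**Figure D2:**
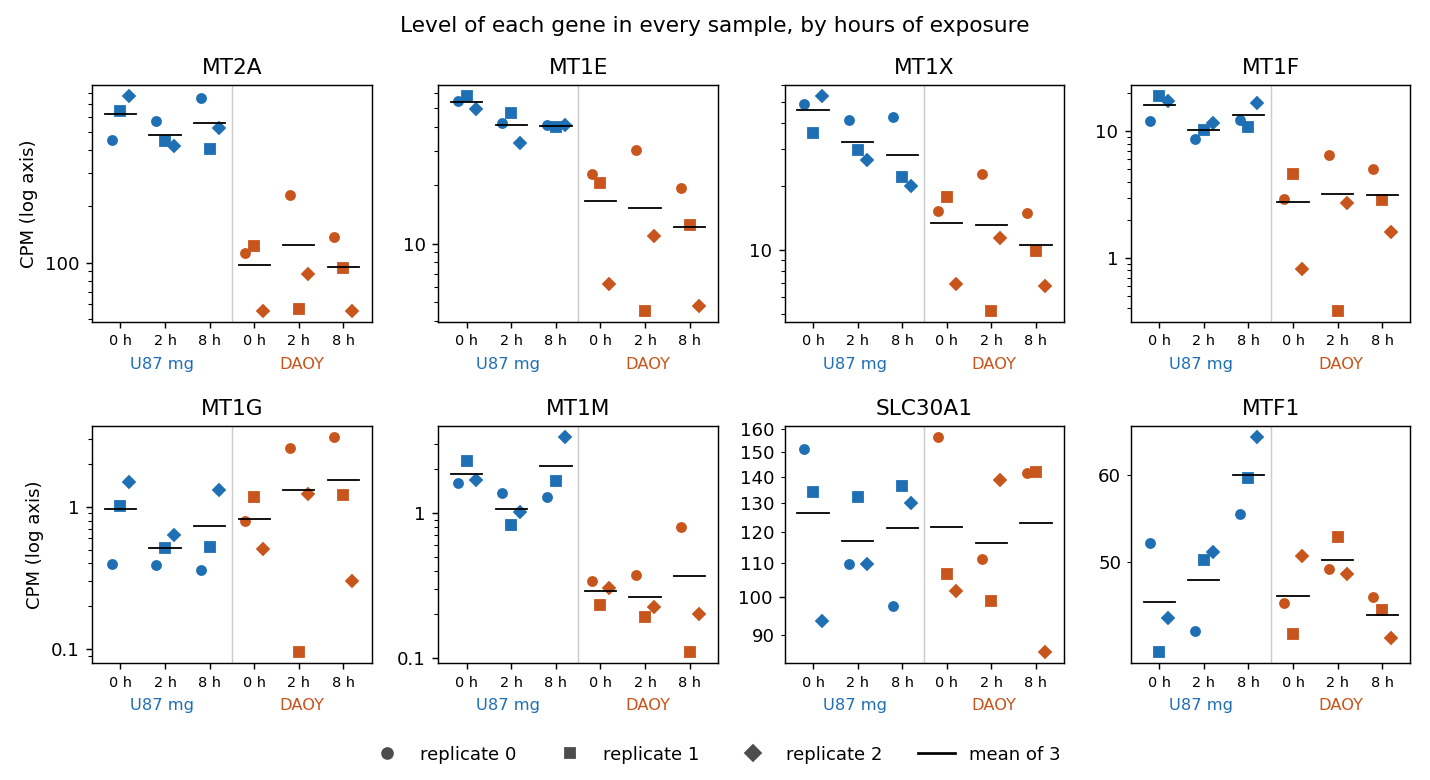
CPM of each of the 8 genes on a log axis in all 18 samples, by line and hours of exposure, with a circle, square or diamond for replicates 0, 1 and 2 and a bar at the mean of 3. The U87 mg samples of MT2A, MT1E, MT1X, MT1F and MT1M at 0 h lie above all DAOY samples at 0 h, whereas the samples of SLC30A1 and MTF1 at 0 h overlap between the lines.

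Of the other genes of the metallothionein cluster, MT1L separated the lines without overlap. This gene, a transcribed pseudogene between MT2A and MT1E at 56617476 to 56618818 on chromosome 16, had 70 to 242 counts in the 9 U87 mg samples and 0 in all 9 DAOY samples. Against a floor of 3 counts per library it was at least 36.4-fold higher in U87 mg at 0 h, where its mean was 10.6 CPM. MT1A went the other way at the limit of detection, with 0 counts in every U87 mg sample and 0 to 5 in DAOY, and no fold is given for it. MT3, the form enriched in brain, had 0 to 20 counts in U87 mg and 0 to 3 in DAOY, and MT1H and MT1B had at most 4 and 1. Reads of these genes can be divided among near-identical copies: of the 31-letter words in their transcripts, 23.8% of those of MT1M, 23.3% of MT1G, 19.8% of MT1X, 15.6% of MT1E, 7.25% of MT2A and 3.25% of MT1F also occurred in another gene. For MT1L the share was 16.3% and for MT1A 18.9%, and for SLC30A1 it was 0%. Words shared with another metallothionein gene made up 5.30% for MT1X and 4.51% for MT2A, and the whole share for the other metallothioneins named here.

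At the level of single transcripts, 9 transcripts of the members passed the filter in each line, and 4 of them, of 3 members, were called lower in DAOY at 0 h. Of the 33583 transcripts that passed in each line, 7.31% were called lower. MT2A was divided almost evenly between a 416-base transcript without an annotated coding sequence and the 786-base coding transcript, which held 52.0% and 47.3% of its counts in U87 mg. Both were lower in DAOY, by log2 fold changes of −2.71 (adjusted p = 0.00132) and −2.58 (adjusted p = 0.00507) in edgeR across 50895 transcripts. A transcript of MT1X (−1.69, adjusted p = 0.0304) and one of MT1E (−1.92, adjusted p = 0.0465) were lower as well by the same test. Another transcript of MT1E was not called (−1.17, adjusted p = 0.283) in edgeR. Neither tested transcript of MT1F was called (−2.69, adjusted p = 0.0574, and −2.15, adjusted p = 0.126), although MT1F was called as a gene in edgeR.

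The main question of the design was what changed under the field. In edgeR, neither 2 h nor 8 h of the field gave a call in U87 mg (0 of 8 genes) or in DAOY (0 of the 7 tested). MT1M, with 1 to 9 counts per sample, was too low to be tested in DAOY. Over all genes the same rule called 0.0% in U87 mg at 2 h, 0.638% at 8 h, 0.0% in DAOY at 2 h and 3.13% at 8 h. DESeq2 and limma on log2(TPM + 1) also called 0 of the members in each of these 4 comparisons. At an unadjusted p under 0.05 there were 2 members in U87 mg at 2 h (against 8.78% of all genes), 3 at 8 h (against 15.9%), 0 in DAOY at 2 h (against 2.75%) and 0 in DAOY at 8 h (against 22.7%). In the transcripts tested, 14 in U87 mg and 10 in DAOY, 0 were called in any of the 4 comparisons in edgeR, as were 0.0% of all 40613 transcripts in U87 mg and of all 41336 in DAOY. At an unadjusted p under 0.05 there were 3 member transcripts in U87 mg at 2 h (against 5.56% of all transcripts), 3 at 8 h (against 6.3%), 0 in DAOY at 2 h (against 3.07%) and 0 at 8 h (against 10.3%).

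**Figure D3:**
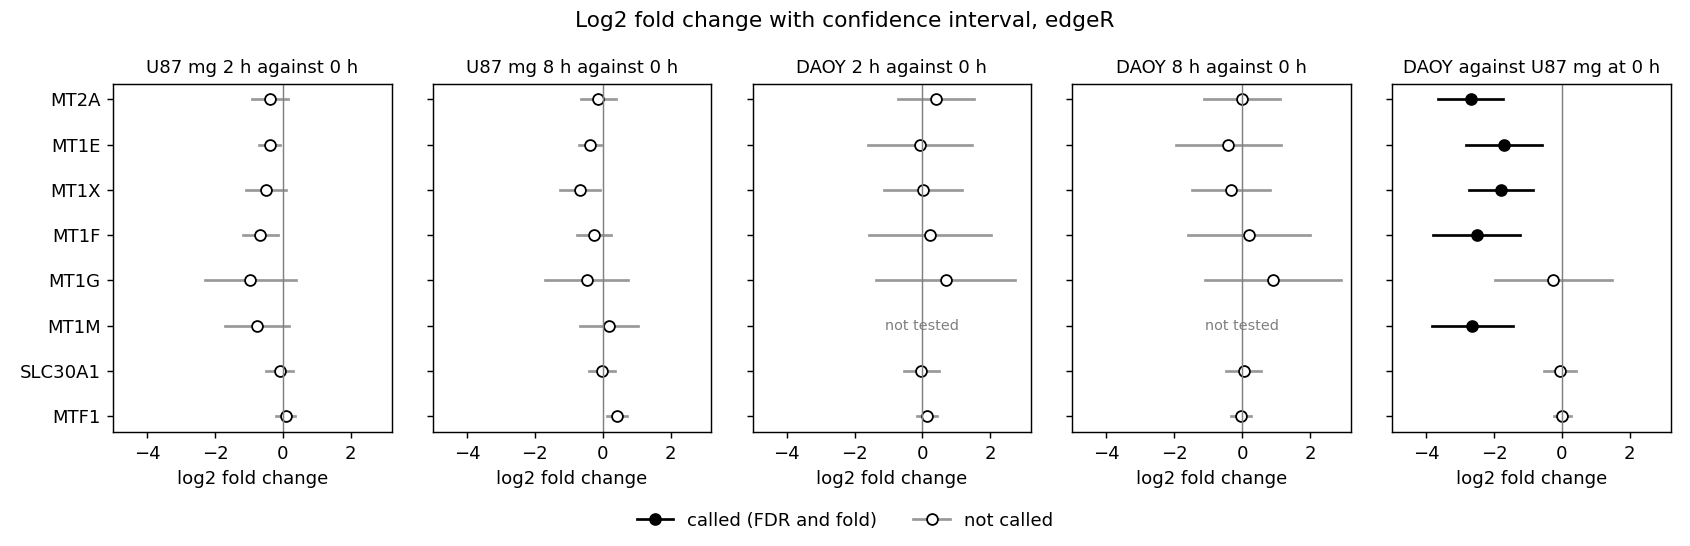
Log2 fold change (points) with the 95% confidence interval (lines) of each gene in the 4 comparisons of the field and in DAOY against U87 mg at 0 h, with filled points for called genes. The point of MT1M between the lines is filled, although MT1M passed the filter only through its counts in U87 mg. In the comparisons of the field no point is filled, and the intervals of the metallothioneins are wider in DAOY than in U87 mg.

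In U87 mg at 2 h the estimates of all 6 metallothioneins lay below 0, between −0.97 and −0.38 with a median of −0.58, while the median over all genes was −0.021. MT1F reached 8.70, 10.2 and 11.7 CPM at 2 h, against 11.98 to 19.1 at 0 h, and MT1E reached 41.9, 47.2 and 33.0 CPM, against 49.6 to 58.0. MT1M reached 0.821 to 1.37 CPM at 2 h and 1.60 to 2.27 CPM at 0 h. These 3 members lay lower at 2 h without overlap, as 6.15% of all genes did. None passed the test: the log2 fold change was −0.67 (SE 0.24) for MT1F, −0.39 (SE 0.15) for MT1E and −0.77 (SE 0.44) for MT1M, each with an adjusted p of 0.495 in edgeR after Benjamini-Hochberg adjustment. MT2A, at 569, 444 and 419 CPM, overlapped with its 0 h values, and its log2 fold change of −0.38 had an interval from −0.90 to 0.14. When a trend with GC content was removed from each library, the values of MT1F, MT1M and MT2A became −0.31, −0.44 and −0.21. Without 0 h replicate 0, MT1F was at −0.85 with an adjusted p of 0.0404 in edgeR, under the fold that a call needs. With 1 replicate left out, the value of MT2A ran from −0.58, without 0 h replicate 0, to −0.21, without 0 h replicate 2.

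In U87 mg at 8 h the estimates of 5 metallothioneins lay below 0 and that of MT1M above it. MT1E lay at 40.9, 39.8 and 41.1 CPM, all below its 0 h values and with the smallest spread between replicates of any member in this condition, and its log2 fold change was −0.38 (SE 0.15). MT1X stood at 42.5 CPM in replicate 0 but at 22.1 and 20.1 in replicates 1 and 2, and its log2 fold change was −0.68 (SE 0.27, adjusted p = 0.241) in edgeR. Without replicate 0 of the 8 h samples this value was −1.09 with an adjusted p of 0.0476 by the same test, and MT1X was then the 1 member called. With no filter on low counts it was −0.69 with an adjusted p of 0.0113 in edgeR, under the fold that a call needs. MT1M, at 1.29 to 3.33 CPM, and MT2A, at 403 to 752 CPM, overlapped with 0 h. MTF1, the regulator, reached 55.3, 59.6 and 65.1 CPM at 8 h, above its 41.3 to 52.0 CPM at 0 h. Its log2 fold change of 0.42 (SE 0.13) had an unadjusted p of 0.00780 and an adjusted p of 0.140 in edgeR. After removal of the GC trend this value was 0.35 (adjusted p = 0.0489) and without 0 h replicate 0 it was 0.50 (adjusted p = 0.0466) in edgeR, both still under that fold. MTF1 was the only member higher at 8 h without overlap, as 7.65% of all genes were, and MT1E the only one lower without overlap, as 9.78% were. SLC30A1, its target gene for zinc export, differed by −0.022 with an interval from −0.41 to 0.37.

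In DAOY, 0 members lay apart from their 0 h values without overlap at either time. Over all genes, 2.67% lay higher and 4.27% lower without overlap at 2 h, and 11.3% higher and 14.4% lower at 8 h. MT2A reached 231, 56.7 and 87.1 CPM at 2 h and 136, 93.4 and 55.2 CPM at 8 h, against 55.3 to 123 at 0 h. Its log2 fold change was 0.40 at 2 h, with an interval from −0.72 to 1.53, and −0.0081 at 8 h, with an interval from −1.13 to 1.12. Without replicate 0 of the 2 h samples, the former value was −0.42. At 2 h the intervals of MT1E, MT1F, MT1G and MT1X all reached beyond 1 on the log2 scale on both sides of 0. At 8 h those of MT1E, MT1F and MT1G did so, and that of MT1X ran from −1.48 to 0.83, so changes of this size could not be detected in DAOY. SLC30A1 (0.046, interval from −0.47 to 0.56) and MTF1 (−0.032, interval from −0.33 to 0.26) were held within narrower limits at 8 h.

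The changes of both lines were compared by an interaction term in a fit of all 18 samples, in which an FDR below 0.05 alone made a call. For the 2 h change, 0 of 8 members were called, as were 0.0% of all genes. For the 8 h change, 0 of 8 members were called against 0.0121% of all genes. At an unadjusted p under 0.05 there were 0 members at 2 h (against 6.4% of all genes) and 1 at 8 h (against 8.88%) by edgeR, and DESeq2 and limma called 0 members in both. The 1 was MTF1, whose 8 h change in DAOY minus that in U87 mg was −0.44 (SE 0.18, adjusted p = 0.444) in edgeR after Benjamini-Hochberg adjustment. A difference between the lines in the response of these genes to the field was thus not detected.

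In each DAOY condition, the ratio of the highest to the lowest replicate was set beside its median over genes averaging at least 5 CPM. It was larger than this median for MT2A, MT1E, MT1X, MT1F and MT1G. MT1F, with means of 2.78 to 3.19 CPM, and MT1G, with 0.821 to 1.53 CPM, lay under that level. For them this median is thus no like comparison, as it comes from genes with more counts. In DAOY at 2 h the highest replicate exceeded the lowest 4.07-fold for MT2A, 4.45-fold for MT1X and 6.74-fold for MT1E. For MT1F it did so 17.0-fold, at 4 to 70 counts, and for MT1G 27.2-fold, at 1 to 28 counts. The median of 11214 genes with a mean of at least 5 CPM was 1.31-fold, and 99.1% of them had a smaller ratio than MT2A. At 0 h and 8 h in DAOY the ratio of MT2A was 2.23 and 2.47, with medians over genes of 1.52 and 1.28. In U87 mg the ratio of MT2A, at 1.73, 1.36 and 1.86 at 0 h, 2 h and 8 h, was also above the medians of 1.33, 1.21 and 1.27. MT1X, at 1.51, 1.55 and 2.12, and MT1F, at 1.59, 1.34 and 1.57, lay above them too. The ratio of MT1E was smaller than the median at 0 h (1.17) and 8 h (1.03) and larger at 2 h (1.43). MTF1, which regulates these genes, varied between 1.08-fold and 1.18-fold in DAOY, less than the median gene at each time.

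The spread in DAOY was shared among MT2A, MT1E, MT1X, MT1F and MT1G, and less so with MT1M. At 2 h, replicate 0 was the highest and replicate 1 the lowest for each of MT2A, MT1E, MT1X, MT1F and MT1G. Deviations from the condition means over the 9 DAOY samples gave Pearson's r between 0.948 and 0.993 for the 6 pairs among MT1E, MT1F, MT1X and MT2A. With these 4 genes MT1G gave r of 0.904 to 0.910, and MT1M, at 1 to 9 counts in DAOY samples, 0.422 to 0.506. With SLC30A1 the r of these 4 genes lay between 0.467 and 0.619, and with MTF1 between −0.541 and −0.346. In the 9 U87 mg samples the 6 pairs gave −0.471 to 0.640. There the r of the 4 genes ran from −0.835 to 0.446 with SLC30A1 and from −0.714 to −0.053 with MTF1. These values are descriptions over samples that share library and depth. Summed over the 6 metallothioneins, the level in DAOY ran from 67.0 to 293 CPM (median 120) and in U87 mg from 478 to 901 CPM (median 605), so the highest DAOY sample lay below the lowest of U87 mg.

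**Figure D4:**
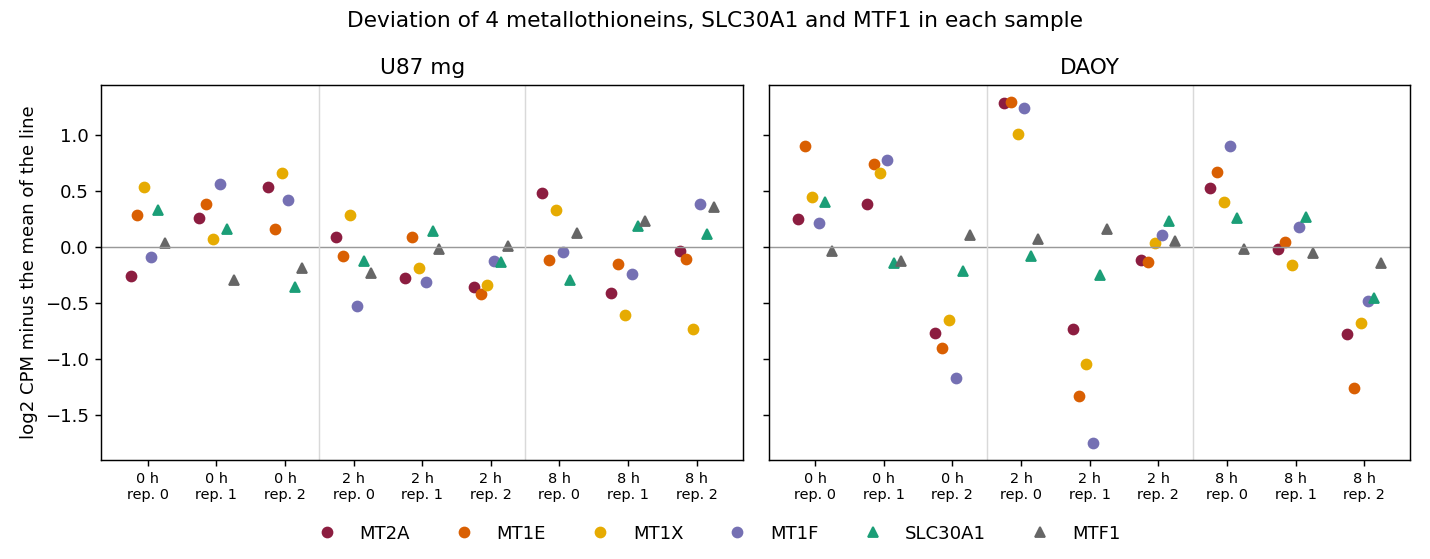
Log2 CPM minus the mean of the line for MT2A, MT1E, MT1X and MT1F (circles) and for SLC30A1 and MTF1 (triangles) in the 9 samples of each line. In most DAOY samples the 4 metallothioneins lie on the same side of 0, from about −1.75 for MT1F in replicate 1 at 2 h to 1.29 for MT1E in replicate 0 at 2 h, while MTF1 stays near 0.

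Base composition moved with some of these levels. For each library the log2 CPM of 11271 genes, centred on the mean of its line, was regressed on the GC content of the gene's most abundant transcript. The slope ran from −0.24 to 0.26 per 10 percentage points of GC in U87 mg and from −0.43 to 0.26 in DAOY, where the lowest was that of replicate 0 at 0 h. MT2A has a GC content of 51.4%, MT1E 48.2%, MT1X 50.9%, MT1F 59.9% and MT1M 62.5%, against a median of 47.6% over genes. Over the 9 U87 mg libraries the slope had a Pearson's r of 0.83 with MT2A, 0.59 with MT1F, 0.39 with MT1E and 0.30 with MT1X. It was −0.42 with SLC30A1 and −0.31 with MTF1. Over the 9 DAOY libraries r was 0.28 for MT2A, 0.22 for MT1F, 0.05 for MT1E, 0.17 for MT1X, −0.53 for SLC30A1 and 0.11 for MTF1. In the 8 without replicate 0 at 0 h these values were 0.71, 0.52, 0.64, 0.67, −0.22 and 0.0047. The part of base composition in the replicate spread was not tested. Removal of the trend left the counts of called members as they were in all 7 comparisons, and the difference of MT2A between the lines at −2.47.

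**Figure D5:**
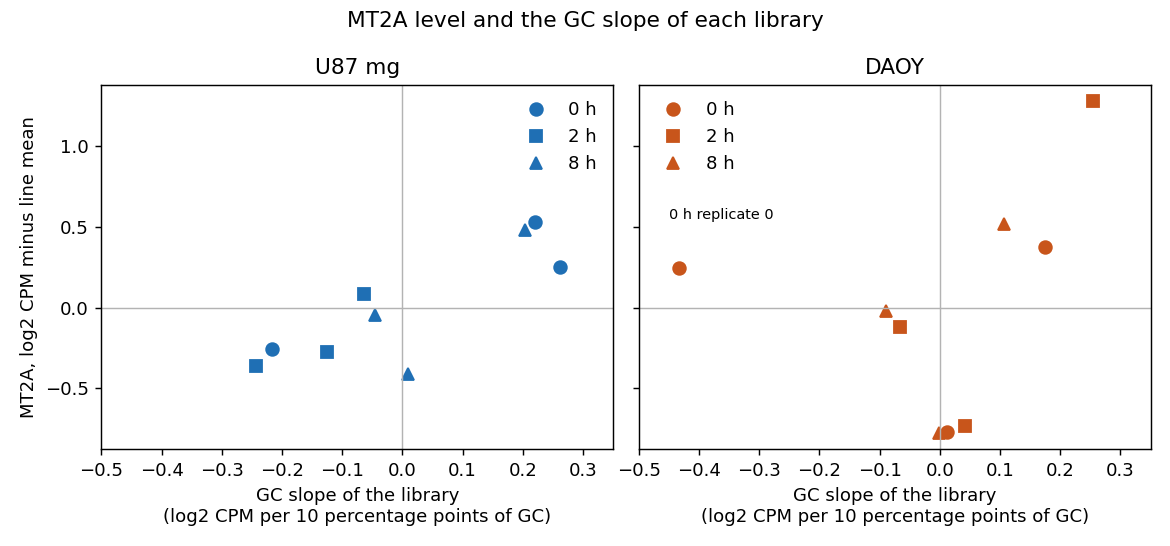
MT2A in each sample, as log2 CPM minus the mean of the line, against the GC slope of its library in log2 CPM per 10 percentage points of GC, with U87 mg at the left and DAOY at the right. In U87 mg the 3 samples with the steepest positive slopes have the 3 highest MT2A levels, and in DAOY replicate 0 at 0 h lies apart at a slope of −0.43.

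The 5 genes outside the members whose level was most like that of MT2A over the 18 samples, each line centred on its own mean, were RAC2 (Pearson's r 0.94), KIF21B (0.93), E2F1 (0.92), NUP62 (0.90) and SH3BP1 (0.89). Within DAOY alone the r of these 5 genes ran from 0.91 to 0.96, and within U87 mg from 0.82 to 0.93. KIF21B encodes a kinesin, E2F1 a cell cycle transcription factor, NUP62 a nucleoporin and SH3BP1 a GTPase-activating protein. In DAOY at 2 h, where MT2A ran from 56.7 to 231 CPM, RAC2 had 82.3, 35.1 and 45.5 CPM in replicates 0, 1 and 2. Among the members, r with MT2A was 0.86 for MT1E, 0.85 for MT1X, 0.84 for MT1F, 0.76 for MT1G, 0.32 for MT1M, 0.12 for SLC30A1 and −0.22 for MTF1. Of 16474 genes that are not members, 15 had a higher r with MT2A than MT1E had. The genes were ranked on the same samples, so the order is a description.

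Genes of metal handling outside the 8 members were then counted list by list. Of 24 other zinc transporters, which carry zinc across membranes, 17 passed the filter in U87 mg and 16 in DAOY, and 0 were called in the 4 comparisons of the field in edgeR, with 5, 4, 0 and 4 at an unadjusted p under 0.05 in U87 mg at 2 h and 8 h and in DAOY at 2 h and 8 h. Of the genes of copper handling, 10 and 11 were tested and 0 called, with 0, 1, 0 and 1 at an unadjusted p under 0.05. Of those of iron handling, 6 and 7 were tested and 0 called, with 1, 0, 0 and 1. Over all genes the shares at an unadjusted p under 0.05 in edgeR were 8.78%, 15.9%, 2.75% and 22.7%. Median log2 fold changes of the zinc transporters lay between 0.0016 and 0.06 in these comparisons. Between the lines at 0 h, 1 of the 16 zinc transporters that passed the filter in each line was called higher in DAOY and 3 lower, 2 of 10 genes of copper handling lower, and 2 of 6 genes of iron handling lower. Of all genes that passed the filter in each line, 14.3% were called higher and 17.3% lower. SLC30A4, which carries zinc into vesicles, differed by 1.30 on the log2 scale in edgeR, and SLC39A13, a zinc importer, by −1.65. SLC30A10, a manganese exporter, had 16 to 42 counts in U87 mg samples and 0 to 6 in those of DAOY. SLC31A2 differed by −1.59 and ATOX1, a copper chaperone, by −1.07. The ferritin subunits FTH1 and FTL, which store iron, differed by −1.70 and −1.69, and the iron exporter SLC40A1 had 0 to 2 counts in U87 mg samples and 33 to 83 in those of DAOY.

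Stress genes that heavy metals also induce had positive medians at 8 h in both lines, under the fold needed for a call. Their median log2 fold change was 0.80 in U87 mg at 8 h (11 tested) and 0.61 in DAOY at 8 h (12 tested), with medians over all genes of −0.0012 and −0.01. At an unadjusted p under 0.05 in edgeR there were 7 of them in U87 mg at 8 h (against 15.9% of all genes) and 4 in DAOY at 8 h (against 22.7%). In edgeR 0 of the stress genes tested were called at 2 h or 8 h in either line. DNAJB1, a co-chaperone of the heat shock response, reached 271, 239 and 266 CPM in U87 mg at 8 h, against 142 to 155 at 0 h. In DAOY it reached 143, 154 and 132 CPM at 8 h, against 63.0 to 94.98 at 0 h. Its groups did not overlap in either line, and its log2 fold change was 0.85 (SE 0.15, adjusted p = 0.0236) in U87 mg and 0.85 (SE 0.17, adjusted p = 0.0222) in DAOY in edgeR. HSPH1, a chaperone of the same response, differed by 0.96 (SE 0.17, adjusted p = 0.0236) in U87 mg and by 0.67 (SE 0.20, adjusted p = 0.0729) in DAOY by that test. Both genes were picked after their values were seen. HMOX1, which degrades heme, differed by 1.25 (SE 0.48, adjusted p = 0.221) in U87 mg at 8 h in edgeR.

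Of the glucocorticoid-inducible genes, 8 were tested in each line and 1 was called under the field, CEBPD in U87 mg at 8 h, where 0.638% of all genes were called. CEBPD, a transcription factor gene, fell from 5.89, 4.54 and 5.64 CPM at 0 h to 1.80, 2.18 and 1.31 CPM, a log2 fold change of −1.56 (SE 0.33, adjusted p = 0.0389) in edgeR. At an unadjusted p under 0.05 in edgeR there were 0, 1, 0 and 3 of the glucocorticoid-inducible genes in U87 mg at 2 h and 8 h and DAOY at 2 h and 8 h. Over all genes the shares were 8.78%, 15.9%, 2.75% and 22.7%. Between the lines at 0 h, 4 of the 8 were called higher in DAOY and 1 lower, with a median log2 fold change of 1.03 where that of all genes was 0.048. Of all genes that passed the filter in each line, 14.3% were called higher in DAOY and 17.3% lower. KLF9 (3.89) and FKBP5 (2.98) were called higher and DUSP1 (−1.10) lower in edgeR, each value a log2 fold change.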

How the data were processed

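PolyA RNA of 18 samples (3 per line and time) was sequenced with single-end reads from a stranded kit. Per the submitters' processing notes, the authors used FastQC 2.0.0, kallisto 0.43.0 and sleuth 0.28.1 in R 3.2.1 on GRCh38.p5. The authors deposited estimated counts and TPM per transcript (GENCODE 24), together with the p-values, q-values and fold changes of their own comparisons, which were not used here. Whether strand was used in counting is not given in the sources used here.

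Estimated counts were summed by gene name and rounded. Genes were filtered with filterByExpr, scaled by TMM and tested with edgeR 4.0.16 (glmQLFit, glmQLFTest) in R 4.3.3, the 9 samples of a line for the field and all 18 between lines, with Benjamini-Hochberg adjustment over all genes. A call needed a log2 fold change of 1 or more in size beside an FDR under 0.05, or the FDR alone for interactions. Counts were simulated from these samples with the spread usual for genes of the same level. Each changed gene was given a change larger than the fold a call needs. Of 200 such genes, 182 were called in U87 mg (14106 genes) and 171 in DAOY (15396 genes). In each line 1 unchanged gene was called. Smaller changes and genes of wider spread were not simulated, so these shares do not apply to them. Recovery for the 8 genes in particular was not tested. The SE of the 5 metallothioneins tested in DAOY at 2 h ran from 0.51 to 0.92. Genome positions came from GENCODE 29 and promoters from RefSeq. Other tools were limma 3.58.1, DESeq2 1.42.0, Python 3.11.15, pandas 2.3.3 and matplotlib 3.10.9. The 8 genes and all lists were chosen with earlier results of these data known. Named are the 8 genes, list genes that were called, the 5 genes most like MT2A and markers at or under 3 counts. Other genes were named after their values were seen. Alternatives were a minimum of 10 counts per sample or none, DESeq2, limma (log2 of TPM with 1 or 0.1 added), a replicate block, other sample sets, no fold minimum, transcripts, each replicate left out and, added after the data were seen, removal of a GC trend in 20 bins. The study calls the samples biological replicates and chose 3 per condition by the quality of their RNA from 4 (DAOY at 8 h had 3). No source used here says that they came from separate cultures, so p-values measure the spread between these samples, and floors of 3 counts cover counting error only.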

Additional observations from a re-analysis of the deposited data

How the results depend on the processing

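Counts of called members between the lines include MT1M here. Every count of called members kept its value under every alternative except for those named here. With at least 10 counts in every sample the count between the lines at 0 h was 3 instead of 5, since MT1F and MT1M then left the test, and with single transcripts it was 4. Leaving out 1 replicate gave 0 to 1 in U87 mg at 8 h (1 without 8 h replicate 0) and no other change. With limma on log2(TPM + 0.1), MT1E between the lines was at −1.53 with an adjusted p of 0.0507. Calls with the replicate number as a block were 0 in the 4 comparisons of the field and in both interactions, and 5 between the lines, as without it. With 3 samples per group, correlations of same-numbered deviations could not decide whether equal numbers share a preparation. In each pair of groups compared, at least 1 of 3 such correlations was at most 0.1. Over all times these correlations ran from −0.226 to 0.311 in U87 mg (5 of 9 over 0.1) and from −0.243 to 0.513 in DAOY (3 of 9 over 0.1), and 5 and 3 samples correlated best with their own number. Between 2 h and 8 h of U87 mg, which were not compared, all 3 were over 0.1 (0.164 to 0.311) and best, and between the lines at 0 h they ran from 0.023 to 0.532 (2 of 3 over 0.1).

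Estimates that were not called changed sign in these cases, and the cause was not tested. In DAOY at 2 h, limma on log2(TPM + 1) and log2(TPM + 0.1) gave −0.46 and −0.63 for MT1F, −0.056 and −0.20 for MT1G, −0.28 and −0.28 for MT1X, and 0.039 and 0.040 for SLC30A1. MT1X there was also at −0.0039 with at least 10 counts, −0.065 with the replicate block and −0.024 in a fit of all 18 samples. Removal of the GC trend gave −0.075 for MT1F, −0.031 for MT1X and 0.063 for SLC30A1 in DAOY at 2 h, 0.027 for MTF1 in DAOY at 8 h and −0.0023 for MTF1 between the lines. In DAOY at 8 h, DESeq2 gave 0.018 for MT2A, and limma −0.022 and −0.024 for SLC30A1. Between the lines limma gave 0.051 and 0.055 for MT1G, and 0.0019 and 0.0024 for SLC30A1.

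With 1 replicate left out, the ranges that crossed 0 were as follows. In DAOY at 2 h they were −1.09 to 0.37 for MT1E, −0.88 to 0.81 for MT1F, −0.36 to 1.24 for MT1G, −0.68 to 0.40 for MT1X, −0.42 to 0.76 for MT2A and −0.19 to 0.17 for SLC30A1. In DAOY at 8 h they were −0.31 to 0.82 for MT1F, −0.13 to 1.39 for MT1G, −0.36 to 0.27 for MT2A, −0.068 to 0.26 for SLC30A1 and −0.075 to 0.043 for MTF1. In U87 mg they were −0.30 to 0.038 for SLC30A1 at 2 h, and −0.31 to 0.46 for MT1M, −0.39 to 0.058 for MT2A and −0.24 to 0.12 for SLC30A1 at 8 h. Between the lines they were −0.64 to 0.20 for MT1G, −0.27 to 0.10 for SLC30A1 and −0.065 to 0.11 for MTF1. Counts of MT1G and MT1M limit what can be detected for them.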
